A study of Mus musculus with 4 samples.

Results

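The gastric corpus of mice lacking AMPK in parietal cells was compared with that of wild-type mice, both given saline vehicle, on expression microarrays. The comparison uses the 2 vehicle arrays of the 4 in the series, chosen by their titles (AmpkKO Vehicle treated and Wildtype Vehicle treated, day 14), and every difference below is the knockout (KO) value minus the wild-type (WT) value on the log2 scale. All mice were adults of 8 to 10 weeks that received daily intraperitoneal injections for 14 days. WT mice were C57BL/6. KO mice carried Atp4b-cre with floxed Prkaa1 and Prkaa2, which places the recombinase under the promoter of a proton pump subunit made by parietal cells, so that cells without that promoter's activity keep both genes. The KO line had a mixed background, from Atp4b-cre mice of B6/FVB and floxed mice of B6 origin, and littermates served as controls only where possible, so genotype and strain background cannot be told apart. Metformin (300 mg/kg) was given to a further group of each genotype, and these 2 arrays form a second KO and WT pair that shares no array with the vehicle pair. Each group is 1 array, and the labels do not say how many animals an array stands for. The data therefore give sizes of difference, with no replicate check and no p-value.

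AMPK is a kinase switched on when cellular ATP runs low. It has a catalytic α subunit (Prkaa1 or Prkaa2), a β scaffold and a nucleotide-sensing γ subunit. It restrains lipid and protein synthesis and promotes glucose uptake, fatty acid oxidation and autophagy. Parietal cells, which secrete hydrochloric acid through an ATP-driven proton pump, are packed with mitochondria. They share the corpus glands with chief cells, which store pepsinogens, and with neck and pit cells, which make mucus, and they also secrete signals such as sonic hedgehog, TGF-α and BMPs that act on neighbouring cells. The series design text describes fewer parietal cells and impaired maturation in the KO, and the vehicle arrays bear on which transcripts differ in that corpus without metformin.

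Of 11090 genes at or above the level filter (mean over the 4 arrays of at least 5.03, the median of all 22180 measured genes), 256 (2.31%) were higher in KO by 2-fold or more and 900 (8.12%) were lower by that much. At 4-fold or more the counts were 23 and 77. The median difference of these genes was -0.22, and that of all measured genes was 0.03. List medians are read against these, and list counts against 2.31% higher and 8.12% lower. The share of lower genes among those past 2-fold was 77.9% on the deposited scale, 60.4% after cyclic loess scaling and 89.5% once arrays were median-centred. The lower of both values was under 5.03 for 59 of the 256 higher genes and 105 of the 900 lower ones, and for such genes the log2 difference is given as measured, without a fold. Among genes described below by their difference, this applies to Adgrd1, Hgf, Tgfb2, Scg3, Mmrn1, Cd4, Tns4, Isg15, H2-Q10, Oas1g, Psmb9, Cnfn, Hecw1, Pdx1 and Cdx2.

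**Figure D1:**
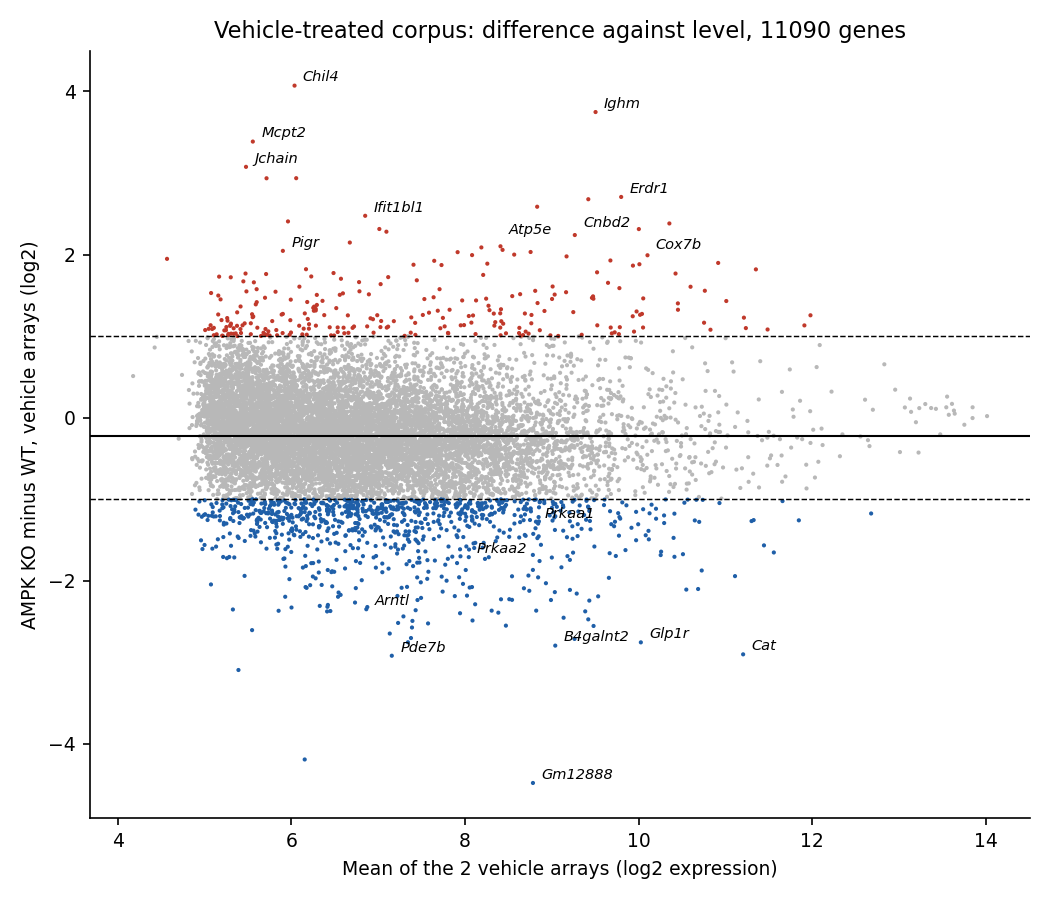
Difference between the KO and WT vehicle arrays (log2, y axis) against the mean of both arrays (log2, x axis) for 11090 genes. Red points are the 256 genes at least 2-fold higher in KO, blue points the 900 at least 2-fold lower, dashed lines mark 2-fold and the solid line the median of -0.22. Blue points outnumber red ones, and Gm12888, Cat and Chil4 lie among the extremes.

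Values on the 4 arrays are given below with WT first and KO second, and within each genotype vehicle before metformin. Genes chosen for a wide vehicle difference are likely to have both metformin arrays between the vehicle arrays. This held for 80.9% of the higher and 91.6% of the lower genes, against 39.3% of all genes. For both targeted genes the KO vehicle array gave the lowest value. Prkaa1, the α1 subunit, had 9.46, 8.90, 8.18 and 8.66, a vehicle difference of -1.28. Prkaa2, the α2 subunit, had 8.90, 8.02, 7.19 and 7.52, a vehicle difference of -1.71. Both stayed above 5.03 on all arrays, in RNA of whole corpus, and whether the probes match the floxed exons is not stated. In bulk tissue, fewer cells of a type and less RNA per cell cannot be told apart. The other subunits differed less, from -0.35 for the β2 subunit Prkab2 to 0.33 for the muscle γ3 subunit Prkag3, whose level was under 5.03 on all arrays. Among 7 measured genes of the upstream kinases, the scaffold gene Cab39l was lower by more than 2-fold (-1.22), while the kinases Stk11 (LKB1) and Camkk2 differed by -0.34 and -0.01. Of 14 substrate genes above the filter, 2 were at least 2-fold lower and none higher, a count near the 8.12% lower and 2.31% higher of all genes. Those were Tsc2, a brake on mTORC1, at -1.09 and Tbc1d4, which controls glucose transporter traffic, at -1.08, which became -0.83 and -0.88 after cyclic loess scaling. The acetyl-CoA carboxylases Acaca and Acacb differed by -0.57 and -0.39.

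The corpus identity of the tissue was clear on both vehicle arrays, with the proton pump, pepsinogen C and gastrokine transcripts among the highest values. The pump itself differed little between genotypes, at levels near the top of the scale, where a limit on differences was not tested. Atp4a, its catalytic subunit, had 13.22, 12.97, 12.80 and 12.94 and Atp4b 13.44, 13.25, 13.01 and 13.32, vehicle differences of -0.42 and -0.43 where the median gene was at -0.22. For the pump and its ion transport, the median of 19 measured genes was -0.42. Of 17 above the filter, 4 were at least 2-fold lower and none higher, against 8.12% and 2.31% of all genes. The 4 were Aqp4, a basolateral water channel (8.98, 8.12, 7.45 and 7.99), Slc9a4, the sodium/hydrogen exchanger NHE4 (10.80, 10.16, 9.36 and 10.29), Slc26a9, a chloride channel (11.93, 11.47, 10.67 and 11.54), and Kcnj15, an apical potassium channel (9.64, 8.95, 8.38 and 9.20). For all 4, the KO vehicle array held the lowest value and the WT vehicle array the highest. The same order held for 91.6% of the 900 lower genes. The potassium channel subunits Kcnq1 and Kcne2, which recycle potassium for the pump, differed by -0.42 and -0.35. Carbonic anhydrase Car2 differed by -0.13 and the anion exchanger Slc4a2 by 0.14.

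Receptors through which hormones and nerves set acid output included 4 that were well past 2-fold lower in KO. Glp1r, the receptor for glucagon-like peptide 1, had 11.40, 10.28, 8.65 and 11.40, which is 6.75-fold lower in KO than in WT under vehicle. Vipr2, a receptor for vasoactive intestinal peptide, had 8.68, 6.94, 6.10 and 6.62, a 5.95-fold difference. Ptger3, the inhibitory prostaglandin E2 receptor EP3, had 8.51, 7.80, 6.07 and 6.99, and Cckbr, the gastrin receptor, had 7.20, 6.41, 5.43 and 6.25, differences of -2.44 and -1.76. In all 4 the KO vehicle array was the lowest of the arrays. The histamine H2 receptor Hrh2, the main acid secretagogue receptor on parietal cells, differed by -0.11, the muscarinic M3 receptor Chrm3 by -0.45 and the somatostatin receptor Sstr2 by -0.11. Of 8 receptor genes above the filter, 4 were at least 2-fold lower and none higher, against 8.12% and 2.31% of all genes. The muscarinic receptor Chrm1 differed by -0.06, and Gipr, Vipr1, Casr and Galr1 were under the filter.

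A further list of parietal markers was not specific to these cells, as Cblif and Chia1 are also on the chief cell list. In it, 6 of 14 genes above the filter were at least 2-fold lower and none higher, against 8.12% and 2.31% of all genes. They were the gastric tight junction claudin Cldn18 (10.86, 10.30, 9.37 and 10.29), the growth factors Hgf (-1.42), Vegfb (-1.36) and Tgfa (-1.12), the stress-response gene Ndrg1 (-1.37) and the transporter gene Mfsd4a (-1.01, or -0.98 as the mean of its probe sets). Gastric intrinsic factor, Cblif, made by parietal cells in humans and chief cells in mice, differed by -0.23, and the vesicle traffic gene Rab25 by 0.18. The regulators of parietal fate and of mitochondrial gene expression differed less. None of 16 was past 2-fold. Gata4 was nearest at -0.999, followed by Gata6 at -0.90 and Ppargc1a (PGC-1α), an AMPK-responsive coactivator of mitochondrial biogenesis, at -0.81. Esrra (ERRα), a partner of PGC-1α on respiratory genes, was instead higher in KO (6.74, 7.41, 7.61 and 7.45, a difference of 0.87). The related receptor gene Esrrg differed by -0.38, and Klf4 by -0.17.

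**Figure D2:**
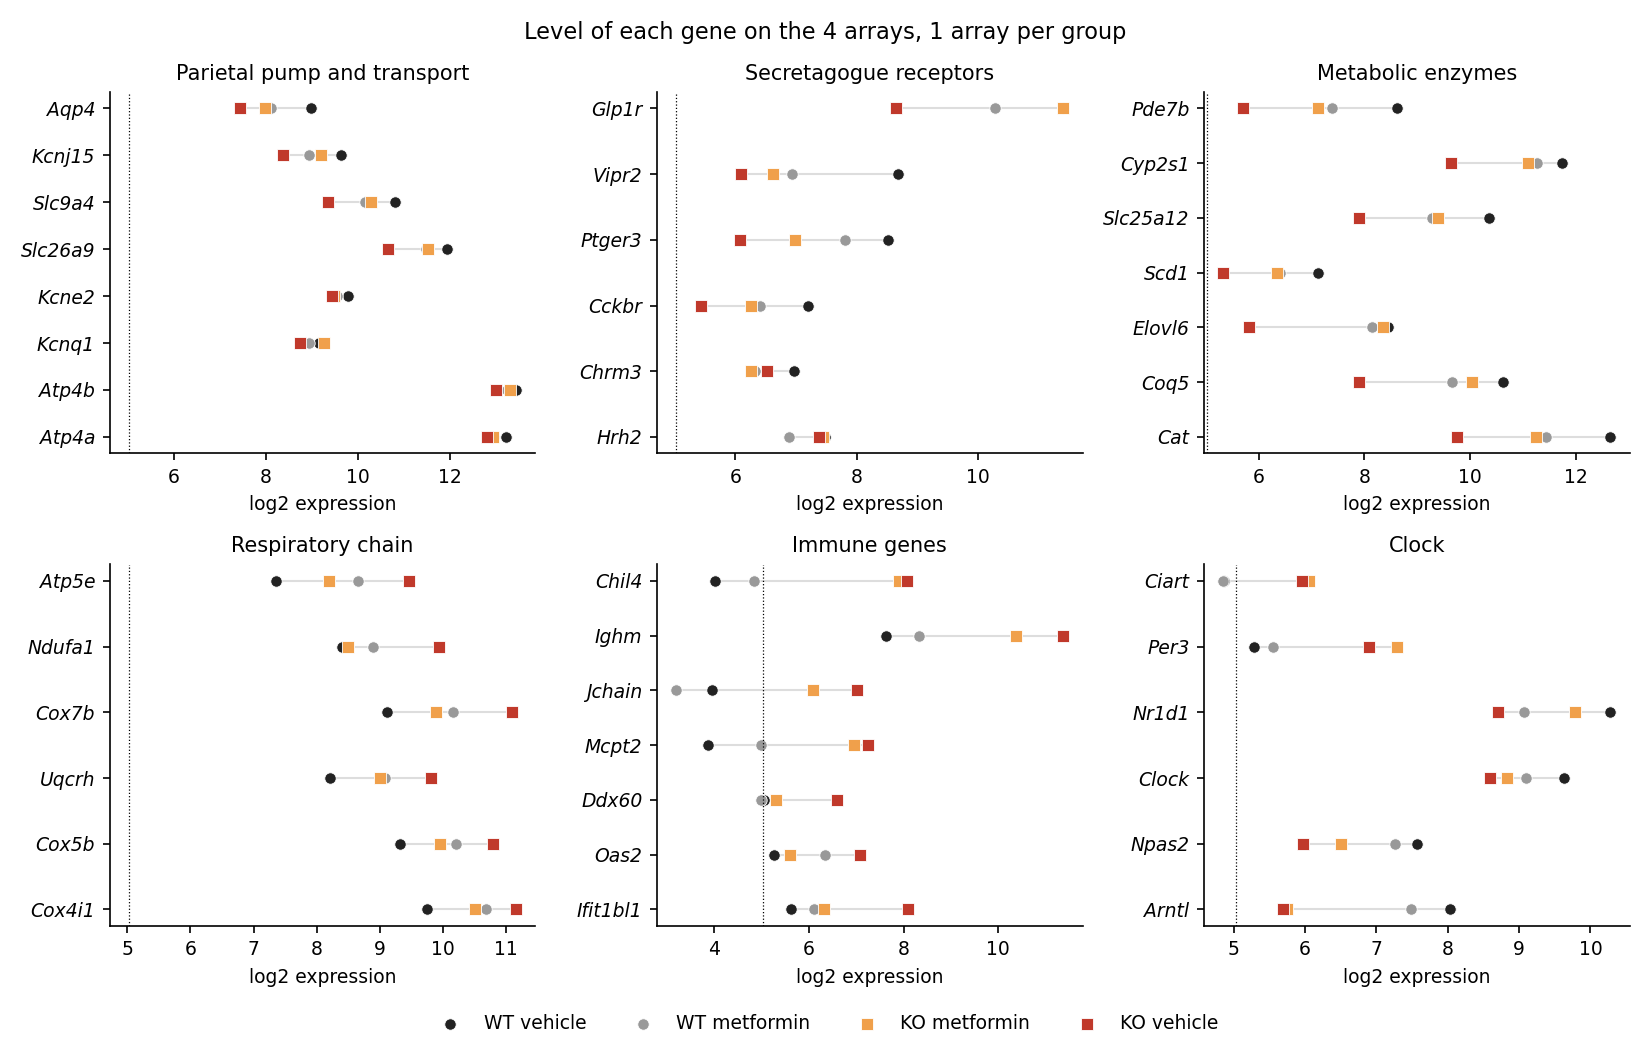
Level of selected genes (log2 expression, x axis) on the 4 arrays, with circles for WT, squares for KO, black and red for vehicle, and grey and orange for metformin; there is 1 array per group and no error bar. The dotted line marks 5.03. In the first 4 panels the WT and KO vehicle arrays mostly sit at opposite ends with the metformin arrays between them, whereas for Chil4, Ighm, Jchain, Mcpt2, Per3 and Arntl the arrays separate by genotype.

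None of the 7 chief cell zymogen genes above the filter was past 2-fold. Pgc (pepsinogen C) had 14.003, 13.99, 14.02 and 13.99, and the widest difference of the 7 was that of Pnliprp2, a pancreatic lipase-related protein, with 10.43, 10.02, 11.10 and 10.997. Pgc had the highest value of each array, and whether the top of the scale limits its difference was not tested. The chief cell transcription factor Bhlha15 (MIST1) differed by 0.51. Mucous neck cell genes went both ways, with 1 higher and 2 lower of 13. A4gnt, which caps gland mucin with α1,4-N-acetylglucosamine, had 9.57, 8.54, 8.10 and 9.28, and its carrier mucin Muc6 had 11.45, 10.82, 10.41 and 11.62; their differences were -1.48 and -1.05 under vehicle and 0.74 and 0.80 under metformin. Lyz2, a lysozyme also made by macrophages, was higher (1.46), while the trefoil peptide Tff2 differed by 0.89. Of 15 pit cell genes above the filter, Ctse (cathepsin E) alone was past 2-fold (13.26, 13.03, 12.09 and 13.16), and the surface mucin Muc5ac differed by -0.73. B4galnt2, a glycosyltransferase that makes the Sda blood group antigen, had 10.44, 9.50, 7.64 and 8.75, 6.94-fold lower in KO. For the metaplasia list (spasmolytic polypeptide-expressing metaplasia, SPEM), 1 of 11 genes above the filter was past 2-fold, the immunoglobulin transporter Pigr described below. The SPEM genes Clu and Sox9 differed by -0.12 and -0.90, Cd44 by -0.42, and Wfdc2 and Cftr were under the filter. The median differences of the zymogen, neck and SPEM lists lay between 0.01 and 0.12, and each turned negative when arrays were centred on their medians.

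Stem and isthmus genes had a median of -0.48 over 15 measured, which became -0.08 with the mean of each gene's probe sets, and 1 of 14 above the filter, Prom1 at -1.20, was past 2-fold. Lgr5 differed by -0.78, Lrig1 by -0.70 and Mki67 by -0.57. No gene of the cell cycle list above the filter was past 2-fold. Of 15 endocrine genes above the filter, 3 were at least 2-fold lower, against 8.12% of all genes. Maob, a monoamine oxidase, had 8.31, 7.01, 6.23 and 7.16, and the granule proteins Scg3 and Chga (chromogranin A) differed by -1.19 and -1.01. The histamine pathway of enterochromaffin-like cells differed by -0.70 for the synthesising enzyme Hdc and -0.93 for the vesicle transporter Slc18a2. Ghrelin (Ghrl) and somatostatin (Sst) differed by -0.47 and 0.10. No tuft cell gene above the filter was past 2-fold.

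Several ligands exchanged between gland and stroma were lower in KO. Of 18 BMP and TGF-β genes above the filter, 5 were at least 2-fold lower and none higher, against 8.12% and 2.31% of all genes. The ligand Bmp7 had 8.37, 7.65, 6.29 and 7.57, Bmp4 had 8.91, 7.90, 6.95 and 8.11 and Bmp3 had 7.27, 6.52, 5.37 and 6.75. For each of these ligands the WT vehicle array was the highest, the KO vehicle array the lowest and both metformin arrays lay between. That order held for 91.6% of the 900 lower genes. Tgfb2 and the inhibitory Smad6 differed by -1.34 and -1.09, while the BMP antagonist Nog was under the filter and the pseudoreceptor Bambi differed by 0.97. Among 12 hedgehog genes above the filter, the signal transducer Smo was at least 2-fold lower (-1.11) and its receptor and target Ptch1 lay at the 2-fold line (-0.998). The ligands Shh and Ihh differed by 0.17 and 0.65, and the target Gli1 by 0.30. The receptor Egfr differed by -0.99, and its feedback inhibitor Errfi1 by -1.12. The Wnt antagonist Sfrp1 was at least 2-fold lower (9.51, 8.94, 7.57 and 8.79), and it alone among 16 Wnt genes above the filter.

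Several of the 15 lowest genes were metabolic enzymes. Cat, which breaks down hydrogen peroxide in peroxisomes, had 12.65, 11.44, 9.75 and 11.25, 7.48-fold lower in KO. Coq5, a methyltransferase of coenzyme Q synthesis, had 10.62, 9.65, 7.91 and 10.04, 6.56-fold lower, and no other of 12 coenzyme Q genes was past 2-fold. Slc25a12, the mitochondrial aspartate-glutamate carrier, had 10.36, 9.29, 7.91 and 9.39, and Slc25a23, an ATP-magnesium carrier, had 9.95, 9.39, 7.92 and 9.27. Of 35 mitochondrial carrier genes above the filter, 5 were at least 2-fold lower and none higher, against 8.12% and 2.31% of all genes. Fatty acid synthesis showed 5 of 17 lower and none higher, against the same shares. These act on chain elongation and desaturation, namely Elovl6 (8.46, 8.15, 5.81 and 8.35), Scd1 (7.12, 6.40, 5.34 and 6.35), Fads2 (-1.24), Fads1 (-1.13) and Elovl1 (-1.11), whereas fatty acid synthase itself (Fasn) differed by 0.25. No cholesterol synthesis gene was past 2-fold, although 13 of 17 were below 0, and the list median was -0.51. The median of all genes above the filter, -0.22, was also below 0. In the citric acid cycle, citrate synthase (Cs) was the only gene of 21 past 2-fold (-1.07), and the list median was -0.37. Cyp2s1 led 6 lower of 24 xenobiotic-metabolising genes (11.73, 11.27, 9.63 and 11.09), with 1 higher, Gstp1 (1.26), against 8.12% and 2.31% of all genes. Among genes of mTORC1 and autophagy, the mTOR inhibitor Deptor had 9.74, 8.66, 7.98 and 8.97 (a difference of -1.76, or -0.70 as the mean of its probe sets). Atg12 and Tsc2 were also at least 2-fold lower, which makes 3 of 29, a count near the 8.12% of all genes.

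Other genes among the 15 lowest under the naming rule had varied functions. Pde7b, a cyclic AMP phosphodiesterase, had the largest difference of the 15 (8.62, 7.39, 5.70 and 7.12, 7.56-fold lower), and it was the only one of 9 phosphodiesterase genes above the filter past 2-fold. Mr1, which presents bacterial vitamin metabolites to T cells, had 8.72, 7.62, 5.97 and 7.75. Lgals12, a galectin of lipid droplets, had 10.76, 10.10, 8.20 and 10.64. C7, a component of the complement membrane attack complex, had 8.73, 7.60, 6.03 and 6.38, and Cd59a, which blocks that complex, had 9.33, 9.06, 6.84 and 8.53. Sntb1, a syntrophin, Mocs1, of molybdenum cofactor synthesis, Dapp1, an adaptor protein, Nudt12, a NADH-hydrolysing enzyme of peroxisomes, and the adhesion receptor Adgrd1 differed by -2.55, -2.52, -2.52, -2.49 and -2.60. Of the 15, C7 alone was past 2-fold in the same direction under metformin (-1.22), Glp1r was past it the other way, and the other 13 lay between -0.75 and 0.56 there.

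Nuclear-encoded subunits of the respiratory chain included many of the genes higher in KO. Of 31 complex I subunit genes above the filter 5 were at least 2-fold higher, of 24 in complexes II to IV 8 were, and of 14 in ATP synthase 4 were. None was at least 2-fold lower, where 2.31% of all genes were higher and 8.12% lower. Cox7b had 9.11, 10.16, 11.10 and 9.88, 3.97-fold higher in KO. Uqcrh had 8.21, 9.09, 9.81 and 8.997 and Cox4i1 9.75, 10.68, 11.15 and 10.50. Ndufa1 had 8.39, 8.90, 9.93 and 8.50, and Atp5e, the ε subunit of ATP synthase, had 7.36, 8.65, 9.46 and 8.20, with a second probe set at 1.22. In each of these 5 genes the WT vehicle array was the lowest and the KO vehicle array the highest. The same order held for 80.9% of the 256 higher genes. List medians were 0.51, 0.57 and 0.22, against 0.03 over all measured genes. The lowest members were Ndufs8 at -0.51 in complex I, Uqcrc2 at -0.62 in complexes II to IV, and Atp5d at -0.55 and Atp5c1 at -0.46 in ATP synthase. Of 10 mitochondrially encoded subunits, 9 differed by 0.04 to 0.17 and ND6 by 1.56. The 9 lay between 13.10 and 13.91 on the 4 arrays, whose highest values of all probe sets were 13.99 to 14.02. ND6 had 9.98, 11.15, 11.54 and 10.71. Whether the top of the scale limits differences was not tested.

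Other abundant complexes also had genes at least 2-fold higher, where 2.31% of all genes were. Cytosolic ribosomal proteins had 11 of 46 genes at least 2-fold higher and none lower, led by Rps28 (9.54, 10.52, 11.31 and 11.05). Mitochondrial ribosomal proteins had 4 of 67 higher and none lower. They were led by Mrps16 (5.60, 7.12, 7.37 and 6.94), whose other probe set was at 0.87. The proteasome core had 5 of 15 higher, including the inducible subunits Psmb8 (1.13) and Psmb9 (1.09) and the constitutive Psmb5 (1.10). These lists hold short genes, with a median genomic span of 7.8 kb for complex I, 6.37 kb for complexes II to IV and 3.16 kb for cytosolic ribosomal proteins, and the shortest genes of all functions had higher differences, as described below. With the trend on span removed, as fitted over all measured protein-coding genes, the medians were 0.39, 0.47 and 0.26, and that of ATP synthase was 0.04. That fit includes genes under the filter, unlike the groups by span described below, so the sizes of the trend can differ.

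**Figure D3:**
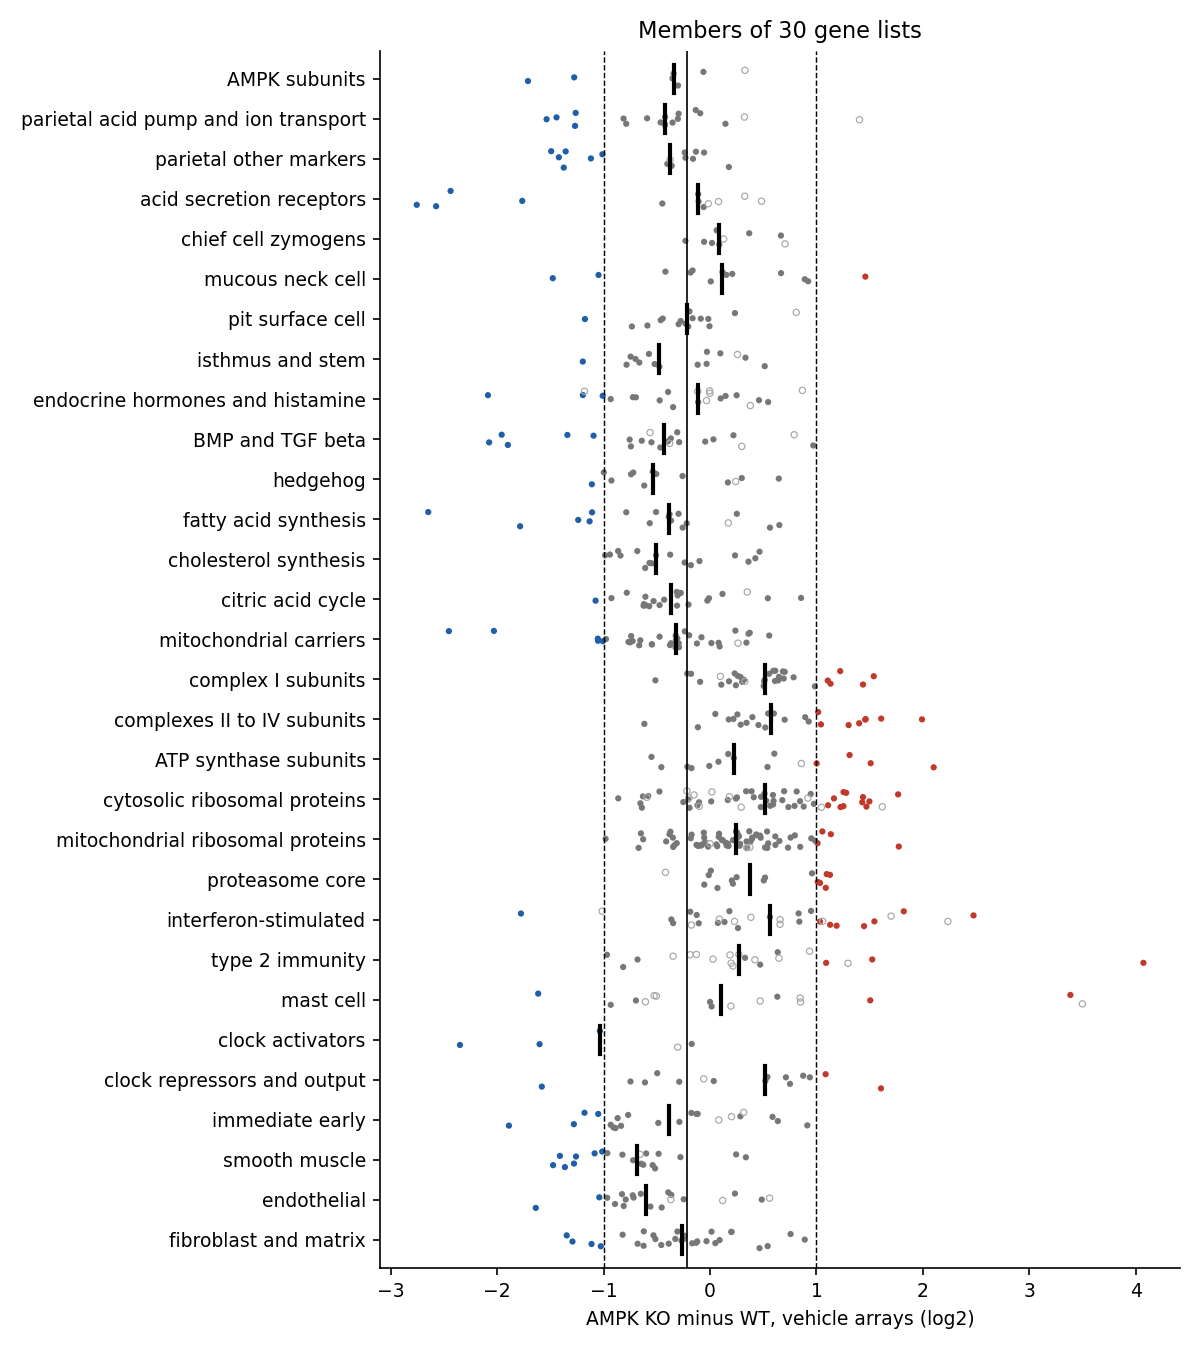
Difference between the KO and WT vehicle arrays (log2, x axis) for each measured member of 30 gene lists (rows). Filled points passed the level filter, red and blue ones at 2-fold or more, open points did not pass it; thick bars are medians over all measured members, the thin line is the median of all genes above the filter (-0.22) and dashed lines mark 2-fold. Respiratory, ribosomal, proteasome and interferon lists sit to the right of the line, and smooth muscle, endothelial and clock activator lists to the left.

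Of 21 interferon-stimulated genes above the filter, 7 were higher by 2-fold or more, where 2.31% of all genes were. Another was lower by that much, and the median of 31 measured was 0.56. Ifit1bl1, of the IFIT family that binds viral RNA, had 5.61, 6.10, 8.09 and 6.31, and Oas2, a sensor of double-stranded RNA, had 5.26, 6.34, 7.08 and 5.60. Ddx60, a helicase, had 5.05, 4.97, 6.59 and 5.30, Ifit1 had 5.27, 5.89, 6.72 and 5.86 and Bst2 (tetherin), which holds budding virus on the cell surface, had 7.77, 8.22, 8.90 and 7.50. Isg15, a ubiquitin-like modifier under the filter, had 4.07, 4.86, 6.30 and 4.53. Each of these 6 genes was highest on the KO vehicle array, while their KO values under metformin lay between 4.53 and 7.50. The exception in direction was Ifi27l2b (8.36, 7.99, 6.59 and 6.63), lower in both KO arrays. Interferon-γ and guanylate-binding genes had none higher and 1 of 8 lower, Gbp7 (-1.23). Of 15 class I presentation genes above the filter, 4 were at least 2-fold higher, the nonclassical H2-Q10 (1.57) and H2-T23 (1.01) with Psmb8 and Psmb9, while the classical H2-K1 and B2m differed by 0.15 and 0.21 and the lower gene was Mr1.

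Interferon-stimulated genes share a promoter element, the interferon-stimulated response element, bound by STAT and IRF factors. Its core was searched as GAAA, any 2 bases and GAAA on both strands, overlaps included, in RefSeq promoters of GRCm38.p6 (250 bases before to 50 after the start). It occurred in 14 of 22 listed genes with a promoter entry, against 3.99% of 27025 genes. The 14 genes with a match had a median difference of 0.86 and the 8 without one -0.12. These medians include genes under the filter, such as Isg15, Rsad2 and Trim30a, and rest on the RefSeq starts used. The part of the element in the difference was not tested. The 150 bases before the start are shown for 4 higher genes and for Rsad2, which carries a match but differed by 0.09; capitals mark the matches, which read as the reverse complement where the core lies on the opposite strand.
Isg15, chr4:156200819-156200968 (minus strand): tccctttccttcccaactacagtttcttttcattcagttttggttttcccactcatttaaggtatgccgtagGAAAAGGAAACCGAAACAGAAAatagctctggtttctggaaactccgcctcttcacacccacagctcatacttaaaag
Ifit1, chr19:34640739-34640888 (plus strand): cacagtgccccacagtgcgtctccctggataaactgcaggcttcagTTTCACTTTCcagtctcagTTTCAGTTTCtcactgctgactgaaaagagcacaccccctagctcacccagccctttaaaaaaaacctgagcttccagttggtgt
Ifit1bl1, chr19:34601969-34602118 (minus strand): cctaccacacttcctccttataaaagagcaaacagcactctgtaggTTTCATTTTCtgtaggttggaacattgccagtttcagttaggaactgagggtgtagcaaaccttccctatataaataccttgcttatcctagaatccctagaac
Oas1g, chr5:120887614-120887763 (minus strand): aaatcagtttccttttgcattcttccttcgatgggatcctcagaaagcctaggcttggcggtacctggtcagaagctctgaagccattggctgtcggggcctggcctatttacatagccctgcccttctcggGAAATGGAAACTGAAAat
Rsad2, chr12:26456453-26456602 (minus strand): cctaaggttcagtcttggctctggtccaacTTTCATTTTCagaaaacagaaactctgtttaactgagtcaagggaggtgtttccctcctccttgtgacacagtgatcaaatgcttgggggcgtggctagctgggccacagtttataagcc
In Isg15 3 overlapping matches run together, in Oas1g 2 overlap next to the start and in Ifit1 2 are separated by a short spacer. The Isg15 difference was 2.23 and that of Oas1g 1.19.

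The highest difference of all named genes was in an immune effector gene and recurred in the metformin pair. Chil4, a chitinase-like protein of type 2 immunity, had 4.002, 4.83, 8.07 and 7.91. Retnla, another type 2 product of macrophages and epithelium, had 5.60, 5.19, 6.69 and 6.31, and Clca1, a goblet cell product induced by interleukin-13, had 5.83, 6.83, 7.36 and 7.86. Both KO arrays were above both WT arrays for each of them. The inducing cytokine genes Il4, Il5 and Il13 were under the filter, with differences of -0.19, -0.13 and 0.19, and Il33 and Il25 differed by 0.33 and 0.64. The mucosal mast cell proteases Mcpt1 and Mcpt2 had 2.88, 3.38, 6.37 and 6.51 and 3.86, 4.99, 7.25 and 6.95, of which Mcpt1 was under the filter, and the tryptase Tpsb2 had 5.54, 5.25, 7.05 and 7.35. Of other mast cell genes, Kit was lower (-1.61), Cpa3 differed by 0.63 and the high-affinity IgE receptor genes Fcer1a and Ms4a2 were under the filter, with 0.85 and -0.53.

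The immunoglobulin genes Ighm, Jchain and the transporter gene Pigr were higher on both KO arrays than on both WT arrays. Ighm, the μ heavy chain constant region, had 7.63, 8.33, 11.38 and 10.39, Jchain, which links secreted IgM and IgA, had 3.94, 3.19, 7.01 and 6.08, and Pigr, the epithelial receptor that carries them into the lumen, had 4.88, 4.93, 6.92 and 6.10. All 18 measured immunoglobulin variable or joining segments had a positive difference, from 0.23 to 2.68 with a median of 1.71. Of the 8 above the filter, 7 were at least 2-fold higher, where 2.31% of all genes were. The filter uses the mean of all 4 arrays, so segments low in WT can pass through their KO values. Igkj1, for example, had 4.76, 4.61, 7.16 and 7.14. The count of 7 is therefore partly set by the filter, whereas the positive sign of all 18 does not depend on it. Such segments resemble each other and their probe sets may share transcripts. For Ighm, 7 probe sets ranged from -0.03 to 3.75. Of plasma cell genes outside the immunoglobulins, Prdm1 differed by -0.26 and Sdc1 by -0.23, and Tnfrsf17 and Mzb1 were under the filter. All 9 B cell genes and all 14 eosinophil and neutrophil genes were under the filter. Cd4 was the only gene past 2-fold of 3 T and NK cell genes above the filter (-1.47).

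Among clock genes, Arntl, Per3 and Ciart were past 2-fold in both pairs. Arntl (BMAL1), the core activator, had 8.04, 7.49, 5.69 and 5.75, Npas2, a paralogue of CLOCK, had 7.57, 7.26, 5.97 and 6.51 and Clock 9.63, 9.09, 8.59 and 8.82. Of repressor and output genes 9 of 15 measured were above 0, with Per3 at 5.29, 5.54, 6.90 and 7.29 and Ciart, a repressor of the CLOCK and BMAL1 pair, at 4.87, 4.86, 5.96 and 6.06. Of the 14 above the filter 2 were past 2-fold higher and 1 was lower, against 2.31% and 8.12% of all genes. The lower one, Nr1d1 (REV-ERBα), had 10.28, 9.07, 8.70 and 9.79. Under metformin 8 of the 14 were past 2-fold higher and none lower, against 0.532% and 0.388% of all genes in that pair. The labels state no time of day for the killing of the mice, so its part was not tested. The E-box CACGTG, through which CLOCK and BMAL1 act, was found in 5 of 14 listed repressor and output genes with a promoter entry against 8.09% of genes, and 3 copies stood in the promoter of Ciart, shown here with the matches in capitals.
Ciart, chr3:95882229-95882378 (minus strand): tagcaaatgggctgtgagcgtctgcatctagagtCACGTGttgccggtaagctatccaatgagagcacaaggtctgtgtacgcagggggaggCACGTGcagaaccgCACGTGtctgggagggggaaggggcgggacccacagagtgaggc
Immediate early and glucocorticoid-responsive genes had 4 of 19 and 4 of 18 at least 2-fold lower and none higher, against 8.12% and 2.31% of all genes. The phosphatase gene Dusp1, in both lists, had 8.52, 7.09, 6.63 and 7.21, the nuclear receptor gene Nr4a1 7.04, 5.89, 5.76 and 6.17, Bcl6 7.17, 5.32, 4.84 and 5.39 and Zbtb16 8.05, 6.26, 6.38 and 6.17; for each of these the WT vehicle array stood above the other 3. Of other glucocorticoid targets, Fkbp5 was at -0.10, Sgk1 at -0.39 and Tsc22d3 (GILZ) at 0.76.

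Of muscle, vessel and stromal lists, smooth muscle had 7 of 19 genes above the filter at least 2-fold lower in KO under vehicle, against 8.12% of all genes, and the endothelial and fibroblast counts were near that share. No smooth muscle gene was at least 2-fold higher, and the list had a median of -0.69 over 20 measured. Cnn1 (calponin) had 11.14, 11.32, 9.66 and 10.68, Des (desmin) 10.02, 10.43, 8.66 and 9.98 and Acta2 (smooth muscle actin) 12.47, 12.25, 11.21 and 11.76, while Tagln differed by 0.24. Endothelial genes had 2 of 17 lower and a median of -0.60, led by the fenestral diaphragm gene Plvap (8.28, 7.98, 6.64 and 7.67). Lymphatic genes had 2 of 4 lower, Lyve1 (-1.43) and Mmrn1 (-1.24). Of the interstitial cells of Cajal, the pacemakers of gut muscle, Kit was lower (-1.61), Etv1 differed by -1.07 in the probe set used but by -0.72 as the mean of its 2 probe sets, and Ano1 differed by -0.63. In fibroblasts, the growth factor receptors Pdgfrb and Pdgfra (-1.35 and -1.11), Dcn (-1.29) and Fn1 (-1.03) were lower, 4 of 30 genes, but the collagens Col1a1 and Col3a1 differed by 0.89 and 0.54. As muscle coat, stroma and mucosa were in one sample, the part of their proportions in any mucosal difference was not tested.

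Genes of neighbouring tissues were examined for other cells in the sample. Forestomach squamous genes had 1 of 8 above the filter higher, Cnfn (1.003), and 1 lower, Ly6g6c (8.71, 8.68, 6.76 and 9.94); the keratins Krt1, Krt4, Krt10 and Krt13 lay between 3.71 and 5.44 on both vehicle arrays but between 6.62 and 8.69 on the KO metformin array, where Cnfn was at 8.83. Antral and duodenal genes had a median of 0.48 over 18 measured, and of 7 above the filter Fabp2, an intestinal fatty acid-binding protein, was higher (6.25, 7.58, 7.98 and 7.70). Gast (gastrin) differed by 0.46, and the antral factor Pdx1 and the intestinal Cdx2, both under the filter, by 1.09 and 1.41. The pancreatic list had none of 4 past 2-fold. The skeletal muscle list had none of 5. Of 4 liver genes above the filter 1 was higher and 1 lower, and of 8 adipocyte genes 1 was higher and 1 lower. Over all genes 2.31% were higher and 8.12% lower. The male-specific Eif2s3y lay between 7.38 and 7.82 on the 4 arrays, and Xist between 2.77 and 3.47.

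The metformin pair gives the same genotype contrast on separate arrays, although all 4 were normalized together. There, 59 genes (0.532%) were past 2-fold higher in KO and 43 (0.388%) lower, so fewer genes separated the genotypes there. Of the 256 genes higher under vehicle, 39.1% were above 0 under metformin, against 53.0% of all genes, and of the 900 lower, 47.2% were below 0, against 46.9%. The size rule was met in both pairs by 23 higher genes (8.98% of the vehicle list and 39.0% of the metformin list) and 10 lower ones (1.11% and 23.3%). Most vehicle differences therefore did not recur in the second pair. For 80.9% of the higher and 91.6% of the lower genes, both metformin arrays lay between the WT and KO vehicle arrays, against 39.3% of all genes; a gene chosen for a wide gap between the vehicle arrays is more likely to show this. The SD of the difference over genes was 0.598 between the vehicle arrays and 0.33 between the metformin arrays.

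Of the 23 genes higher in both pairs 9 were immunoglobulin genes, and Jchain, Pigr, Chil4, Retnla, Clca1, Mcpt2 and Tpsb2 are described above, as are Per3 and Ciart. The others, named after their values were seen, were the heme synthesis enzyme gene Alad (7.16, 7.53, 8.48 and 8.76), Rab3b, a regulator of secretory vesicles (4.74, 4.88, 6.40 and 6.11), Nccrp1, Cnfn and the microRNA gene Mir3095. Cnfn, of the squamous list, differed by 1.003 under vehicle and by 3.66 under metformin, where squamous keratins were also high on the KO array. The 10 lower in both, also named after their values were seen, were Gm12888, C7, Arntl, Ces2a, Adcyap1r1, Zdhhc2, Echdc2, Ifi27l2b, Tmem100 and Rnf125. Gm12888, a predicted gene, had 11.02, 10.74, 6.54 and 7.91, the widest difference on the vehicle arrays (-4.48). Ces2a, an intestinal-type carboxylesterase, had 7.60, 7.10, 5.22 and 5.997, and Adcyap1r1, the receptor for the peptide PACAP, which stimulates enterochromaffin-like cells, had 7.79, 7.11, 5.70 and 5.97.

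Some of these genes neighbour the floxed loci. In the RefSeq gene order, 2 protein-coding genes separate C7 from Prkaa1. Echdc2 and Rab3b lie on the chromosome of Prkaa2 with 35 and 49 protein-coding genes between, and Gm12888, Alad, Mir3095 and the clock gene Per3 lie on it farther away, with 175 to 667 between. Within 100 protein-coding genes to either side of Prkaa1, 63 genes passed the filter, of which C7 was past 2-fold in both pairs. Around Prkaa2, 81 genes passed, of which Echdc2 and Rab3b were. Of all 11090 genes above the filter, 23 higher and 10 lower ones were past 2-fold in both pairs. The median vehicle difference was -0.30 around Prkaa1 and -0.23 around Prkaa2, against -0.22 for all genes above the filter. DNA flanking a floxed allele can come from another strain, and its part in these differences was not tested.

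**Figure D4:**
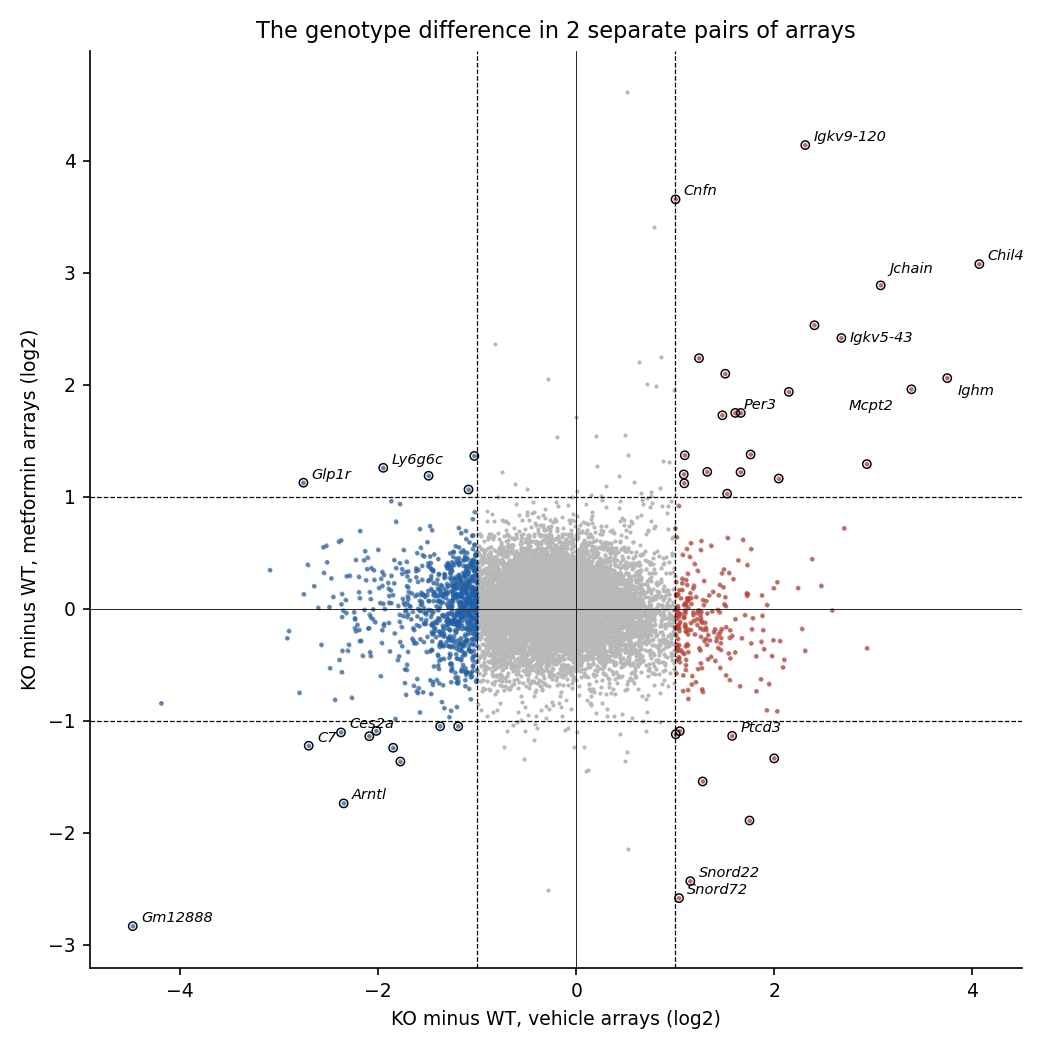
Genotype difference on the metformin arrays (log2, y axis) against that on the vehicle arrays (log2, x axis) for 11090 genes. Red and blue points are past 2-fold under vehicle, and circled points are past 2-fold in both pairs, 33 in the same direction and 13 in opposite directions. Most coloured points lie within the dashed 2-fold lines of the y axis.

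The vehicle difference also varied with the kind and size of gene. Among 10550 protein-coding genes the median difference went from 0.12 in the shortest of 10 groups by genomic span (0.297 to 4.62 kb) to -0.35 in the longest group (122 kb and above). In the shortest group 70 of 1055 genes were past 2-fold higher and 36 lower, whereas in the longest 2 were higher and 94 lower. The metformin pair ran from -0.02 to 0.07 across the same groups. Across genes, which are not independent replicates, Spearman's rho with span was -0.26 for the vehicle pair and 0.08 for the metformin pair. Small nucleolar RNAs, short RNAs that guide modification of ribosomal RNA, had 36 of 59 at least 2-fold higher and a median of 1.13. MicroRNA precursors had 15 of 78 higher and a median of 0.54, where 2.31% of all genes were higher. Protein-coding genes had a median of -0.24. In the metformin pair the medians were -0.39, -0.01 and 0.02 in the same order. Snora44, Snord22, Snord61 and Snord72 were past 2-fold higher in KO under vehicle and past 2-fold lower under metformin. The labels give no RNA quality per sample, and its part in this pattern was not tested. Medians of 20 chromosomes lay between -0.33 and -0.11.

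**Figure D5:**
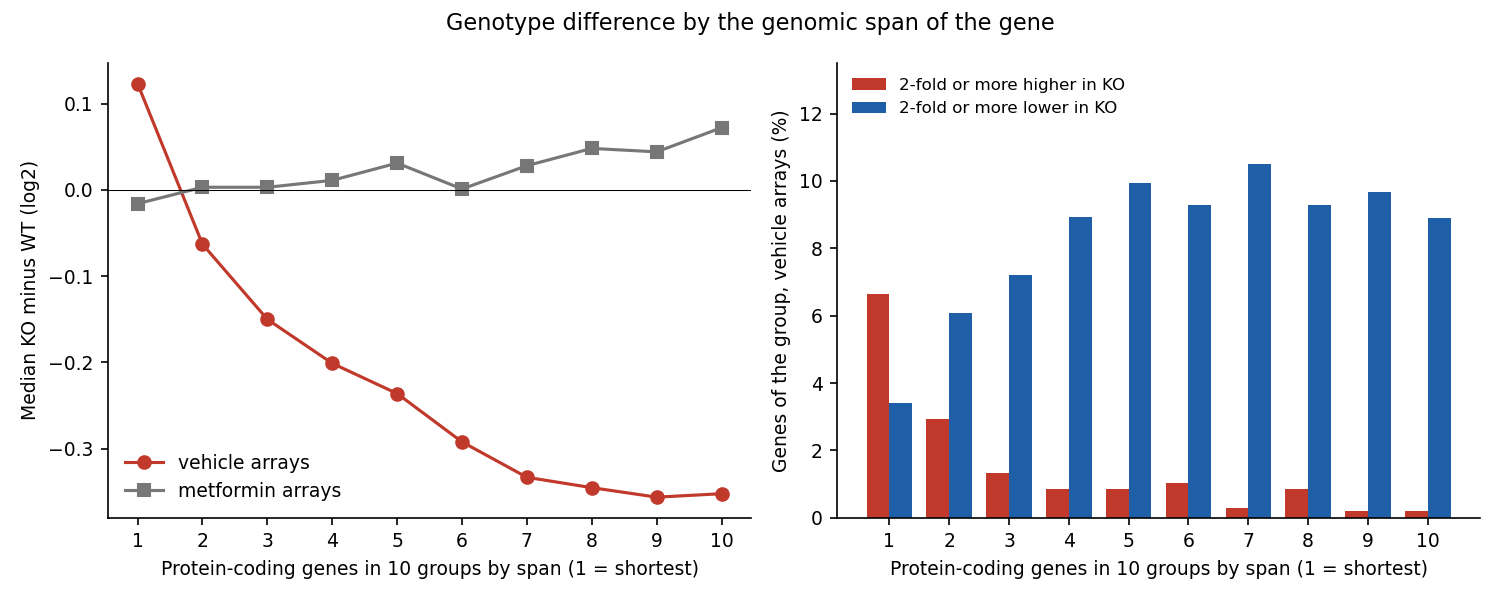
Protein-coding genes above the level filter in 10 groups by genomic span (x axis, 1 = shortest, about 1055 genes each). The left panel gives the median KO minus WT difference (log2) on the vehicle and metformin arrays, and the right panel the percent of genes at least 2-fold higher (red) or lower (blue) on the vehicle arrays. On the vehicle arrays the median drops from 0.12 to -0.35 and the share of higher genes from 6.64% to 0.19%.

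Probe sets of a gene did not always agree. Of the 15 highest genes named by the rule, Cnbd2 had 3 probe sets, at 2.24, 0.10 and -0.13, and Ep400 had 2, at 1.88 and -0.45, so the gene-level value there is that of the brighter probe set. Mrps16, Rps28 and Cox7b each had a dimmer probe set, at 0.87, 0.475 and 1.01. Erdr1, a gene with repeated copies, had 8.45, 10.75, 11.15 and 11.47 and 1.68 in its other probe set. Plac8, a cysteine-rich protein of immune and epithelial cells, had 7.31, 8.74, 9.20 and 8.55.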

How the data were processed

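Total RNA of gastric corpus was hybridised to Affymetrix MoGene arrays, 1 per group, per the labels' protocols. The deposited values are log2 expression per probe set; the tools named per the submitters' processing notes are RMA and Partek, with no version and no order given. Of 41345 probe sets, 23521 named 1 gene, 1814 several and 16010 none in the platform annotation; only those with 1 gene were used, giving 22180 genes, each represented by its probe set with the highest mean over the 4 arrays. Differences were KO minus WT, without a test. A gene was counted at a 2-fold difference or more if its mean over the 4 arrays reached 5.03, and the only limit on precision that can be stated is the number of arrays. Where either vehicle array was under 5.03, the log2 difference is given without a fold.

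Named genes were the 15 highest and 15 lowest past 2-fold (without predicted genes, pseudogenes, small RNAs and immunoglobulin segments), list members past 2-fold and members at the ends of each list. The members and the 76 gene lists were chosen with earlier results of these data known. Alternatives were cyclic loess (limma 3.58.1, R 4.3.3), median centring, other filters and fold rules, the mean of probe sets, and removal of the trend on gene span (lowess, statsmodels 0.14.6). For list medians that trend was fitted over all measured protein-coding genes, and for counts over those above the filter. The counting was tested on simulated data with 200 changed genes among 11090, of which 100% were found. With a fixed size rule and no test, this checks the code alone and gives no rate of false calls. Promoters and gene order came from RefSeq (GRCm38.p6 for promoters).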

Additional observations from a re-analysis of the deposited data

Results flagged for a closer look

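For 6 named genes the genotype difference ran past 2-fold one way under vehicle and past 2-fold the other way under metformin; each difference rests on 1 array per group, and the difference between the pairs was not tested. Glp1r differed by -2.75 under vehicle and 1.13 under metformin. Ly6g6c, of the squamous list, differed by -1.95 and 1.26, and the squamous keratins were high on the KO metformin array. Tns4, a tensin of focal adhesions, differed by -1.49 and 1.19. Ceacam1, a cell adhesion protein, differed by -1.09 and 1.07. In the other direction, Ptcd3, a mitochondrial ribosome protein, differed by 1.58 and -1.13, and Hecw1, a ubiquitin ligase, by 1.01 and -1.12.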

How the results depend on the processing

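The counts of 256 higher and 900 lower genes moved with the settings. Without the level filter 597 genes were higher and 1009 lower, and with a filter at the 75th percentile the counts were 141 and 575, with 307 genes of the same sign under metformin in place of 525. Cyclic loess gave 369 higher and 562 lower, of which 248 and 550 were among the main calls. Centring each array on its median gave 159 and 1359. The 1.5-fold rule gave 825 and 2710, with 1584 of the same sign. Protein-coding genes alone gave 160 higher and 878 lower (a lower share of 84.6%). Of the classes left out, small nucleolar RNAs had 36 higher and 0 lower, microRNA precursors 15 and 4 and pseudogenes 13 and 1. Long non-coding RNAs had 10 and 11, and transcribed pseudogenes 5 and 6. Removing the trend on gene span, also over protein-coding genes alone, gave 88 higher and 975 lower (91.7%). The removal lowers the differences of the shortest genes, whose group held 70 of the 160 higher genes. Of 180 named genes, 32 dropped under 2-fold with cyclic loess, 24 with centring and 7 with the mean of probe sets, and 42 of 178 did with the span trend removed; none reversed past 2-fold. Cyclic loess moved the median of genes above the filter from -0.22 to -0.07, and centring moved it to -0.37. No paired analysis was possible because each group has 1 array. With 1 array per group, differences between animals, arrays and dissections cannot be told apart from genotype.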
